A study of Mus musculus with 12 samples.

Results

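The 3 genes of the Igf2bp family (Igf2bp1, Igf2bp2 and Igf2bp3) were examined together with 5 genes that are studied with them in fetal tissues and tumors, namely Lin28b, Hmga1, Hmga2 and the receptor genes Igf1r and Igf2r. The 8 genes were taken by name from the 38887 genes of the deposited tables, and all 8 were found. RNA-Seq was performed on bone marrow-derived macrophages (BMMs) of 3 wild-type (WT) and 3 IGF2BP2 knockout (KO) mice that were 3 to 4 months old. Marrow was differentiated with M-CSF for 5 to 6 days, and the cells were then left untreated (M0) or received 20 ng/ml IL-4 for 8 h (M2), which gives 4 groups of 3 libraries. KO mice carried loxP sites around exons 4 and 5 of Igf2bp2 and Cre recombinase under control of Lyz2, a gene of the myeloid lineage. WT littermates had no floxed allele and could carry or lack Cre, and the labels do not tell which of them carried it.

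IGF2BP proteins bind mRNAs in the cytoplasm and influence their stability, location and translation. They were first known from the mRNA of insulin-like growth factor 2 (Igf2), and Igf2bp1 and Igf2bp3 are active mainly before birth, whereas Igf2bp2 is retained in many adult tissues. Lin28b blocks the maturation of let-7 microRNAs, and let-7 in turn represses genes of the fetal program, among them Lin28b, Hmga2 and members of the Igf2bp family. Hmga1 and Hmga2 encode small proteins that bind AT-rich DNA and bend chromatin. Igf1r is the signaling receptor for IGF1 and IGF2, and Igf2r removes IGF2 from the cell surface and carries lysosomal enzymes.

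The deleted stretch is small compared with the transcript. In the GENCODE M21 annotation of GRCm38, Igf2bp2 lies on the minus strand of chromosome 16 (chr16:22059009-22163299), and its longest coding transcript has 16 exons and 3899 nt. Exon 4 (chr16:22087528-22087579) has 52 nt and exon 5 (chr16:22083924-22083987) has 64 nt, both within the coding region. The 2 exons make up 116 nt or 2.98% of the transcript, and division of this length by 3 leaves a remainder of 2. A count over the whole gene therefore does not measure the deletion, which would be seen at the exon borders. The borders are shown because they tell an intact from a deleted transcript, with the last 15 nt of one exon in lower case and the first 15 nt of the next exon in capitals. The last of the 3 would exist only where both exons are missing, and reads across these borders were not analysed here.

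exon 3 to exon 4: cacctgcagtgggagGTGTTGGATGGGCTG
exon 5 to exon 6: agaagaggcaaagctAGCTATTGAGAAGCT
exon 3 to exon 6: cacctgcagtgggagAGCTATTGAGAAGCT

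The 8 genes share a sequence feature in their 3'UTRs, the match to the let-7 seed (bases 2 to 8 of the microRNA). In the RefSeq records, 11 mature mouse microRNAs have this seed, of which 3 are shown with the seed in capitals. The letters CTACCTC were searched on the transcript strand in the longest 3'UTR of each gene in GENCODE M21. All 8 genes held at least 1 match, compared with 9.02% of 21037 genes with a 3'UTR. Igf2bp1, Lin28b and Hmga2 held 4 matches each, Igf1r held 2, and Igf2bp2, Igf2bp3, Hmga1 and Igf2r held 1 each. Long UTRs hold more matches by length alone. Among UTRs of similar length, at least 1 match was found in 12.0% for Igf2bp2, 13.2% for Igf2bp3 and 35.9% for Igf1r, whereas 4 or more were found in 0.205% for Igf2bp1, 0.186% for Lin28b and 0.161% for Hmga2. Several of the genes are well-known let-7 targets, so that this is a description and not an independent result, and microRNAs are not measured in poly(A) libraries. The sites shown are the single sites of Igf2bp2 and Igf2bp3 and the first sites of Hmga2 and Lin28b, with the seed match in capitals.

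mmu-let-7a-5p: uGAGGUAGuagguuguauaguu
mmu-let-7i-5p: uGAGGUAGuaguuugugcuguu
mmu-miR-98-5p: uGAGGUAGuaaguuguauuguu
Igf2bp2 site (chr16:22059473-22059495): acacacaaataaaagCTACCTCa
Igf2bp3 site (chr6:49086787-49086809): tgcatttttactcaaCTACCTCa
Hmga2 first site (chr10:120364224-120364246): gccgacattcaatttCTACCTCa
Lin28b first site (chr10:45381022-45381044): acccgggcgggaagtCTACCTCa

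The M0 libraries held between 24942666 and 29832430 counts in WT and between 26568719 and 37054582 in KO. The M2 libraries held between 20011792 and 22744704 counts in WT and between 27347077 and 39632770 in KO. Lyz2, into which Cre was inserted, was the check of the genotype labels. It was lower in KO by a log2 fold change of -8.30 in M0 and -8.57 in M2. Lyz2 reached at most 33.2 CPM (counts scaled to a common library total) in KO libraries and at least 4185 CPM in WT libraries. The check covers the Cre locus and not the deletion of the Igf2bp2 exons. KO and WT libraries thus differ in Lyz2 as well as in the floxed gene. The part of Lyz2 loss or of Cre in the KO against WT results, Igf2bp3 included, was not tested. The 7 macrophage markers summed to between 4672 and 5916 CPM in all libraries, and the 3 T cell markers were at 0 throughout. Of the macrophage markers, Itgam was called higher in KO M0 at an adjusted p under 0.05 (log2 fold change 0.45, edgeR adjusted p = 0.00396), and with IL-4 4 were called higher and 2 lower in WT and 2 higher and 1 lower in KO. Of all tested genes, 9.78% were called between the genotypes in M0, and with IL-4 50% were called in WT and 52.8% in KO. Neutrophil markers had sums of 4.05 to 9.23 CPM (M0) and 2.71 to 6.13 CPM (M2) in WT and of 3.16 to 3.29 CPM (M0) and 2.64 to 3.36 CPM (M2) in KO. Of the 2 that could be tested, S100a9 was called lower in KO M0 (log2 fold change -1.38, edgeR adjusted p = 0.0124). Dendritic cell markers summed to between 0.194 and 0.478 CPM in M0 and between 1.5 and 2.11 CPM in M2 over both genotypes, and B cell and erythroid markers to less than 1 CPM. The dendritic cell marker that could be tested, Zbtb46, rose with IL-4 by a log2 fold change of 2.54 in WT and 2.45 in KO (edgeR adjusted p = 1.32e-05 and 9.23e-06). Stromal markers (Col1a1, Col1a2, Col3a1, Dcn and Lum) had sums of 29.5 to 53.1 CPM (M0) and 32.5 to 59.5 CPM (M2) in WT and of 7.91 to 29.8 CPM (M0) and 8.94 to 26.2 CPM (M2) in KO, and the 4 that could be tested had log2 fold changes for KO against WT between -0.97 and -0.71 in M0 and between -1.29 and -1.18 in M2 that were not called (lowest edgeR adjusted p of 0.205 and 0.138). Markers of blood stem cells and progenitors had median sums of 9.97 CPM (M0) and 15.7 CPM (M2) in WT and of 9.20 CPM (M0) and 15.1 CPM (M2) in KO. With IL-4, 1 of the 5 was called higher (Cd34) and 1 lower (Myb) in WT, and 1 higher (Meis1) in KO, against the same 50% and 52.8% of all tested genes. The part of these markers in the IL-4 results was not tested. In bulk RNA, fewer cells of a type and less RNA per cell cannot be told apart.

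Abundance was compared between genes in TPM, which are scaled to transcript length and to a common library total. In WT M0 the order was Hmga1 (1307 ± 69.5 TPM, mean ± SD, n = 3), Hmga2 (171 ± 22.6 TPM), Igf2r (58.1 ± 12.1 TPM), Igf2bp2 (56.8 ± 14.1 TPM), Igf2bp3 (6.86 ± 0.342 TPM), Igf1r (2.34 ± 0.575 TPM), Igf2bp1 (0.183 ± 0.0252 TPM) and Lin28b (0 TPM). Igf2r and Igf2bp2 were the only neighbors in this order whose libraries overlapped. In M2, Igf2bp2 and Hmga2 had overlapping values, as Igf2bp2 was higher and Hmga2 lower than in M0, with 114 ± 16.3 against 101 ± 5.40 TPM in WT and 73.2 ± 2.07 against 84.2 ± 11.5 TPM in KO, where the overlap came from KO M2 library 1 of Hmga2. In KO M0, Igf2bp3 and Igf1r overlapped at 1.54 ± 0.437 and 1.52 ± 0.263 TPM. In WT M0, library 1 was the highest and library 3 the lowest for 5 of the 6 genes that could be tested, the exception being Igf2bp3.

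**Figure D1:**
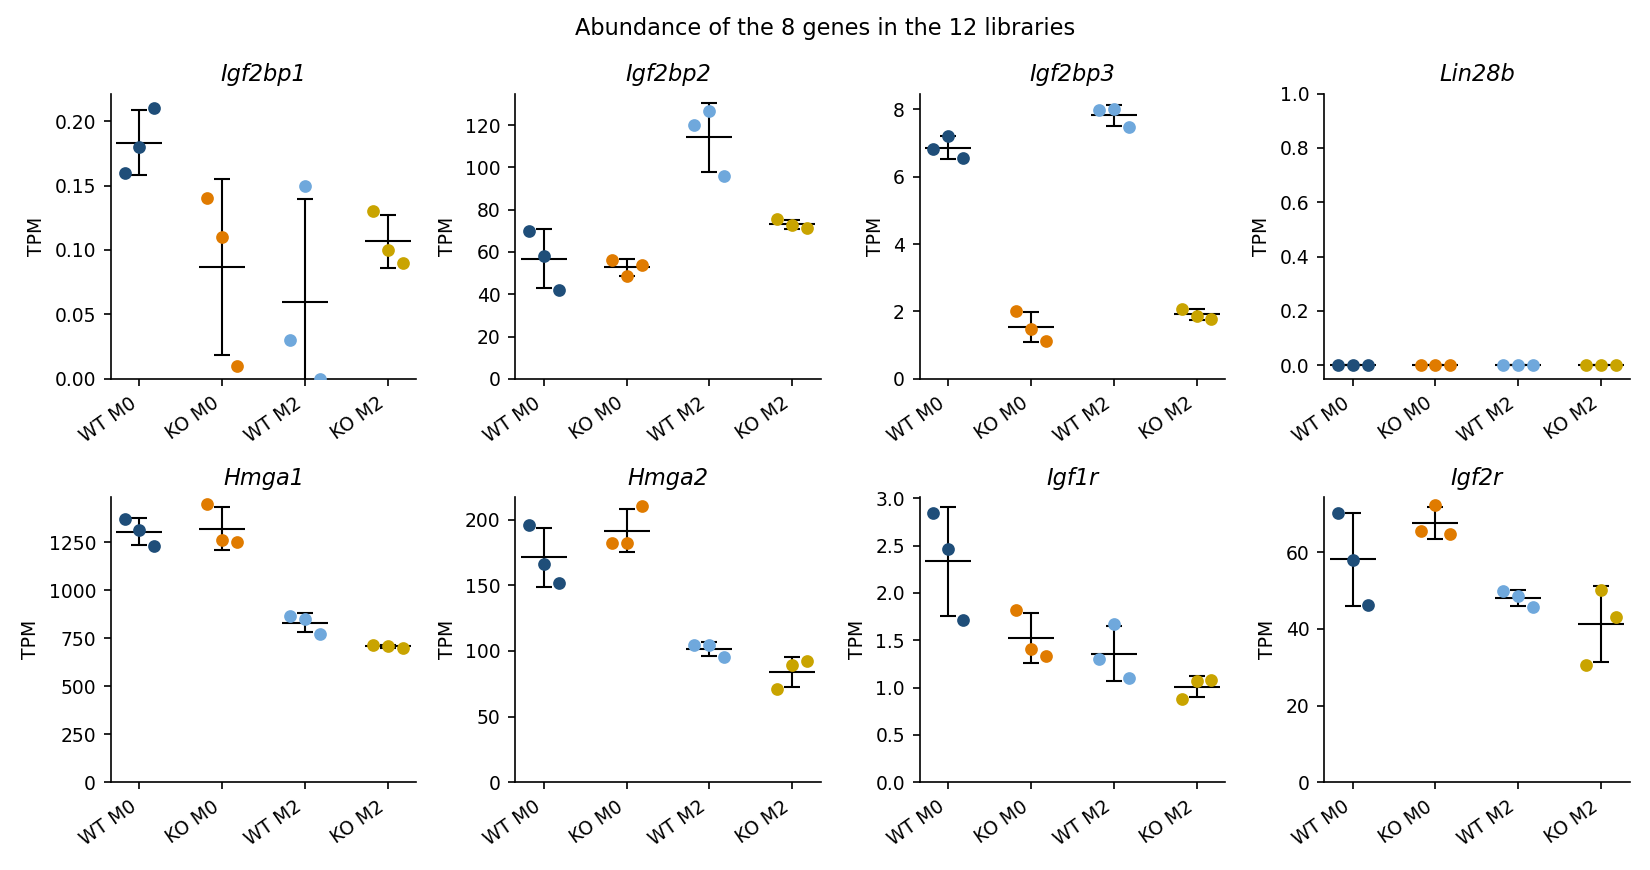
TPM of the 8 genes in each of the 12 libraries (points), with the mean and SD of each group of 3 (black line and bars) and a linear vertical axis from 0 for each gene. Igf2bp3 separates the genotypes in both treatments, Igf2bp2 is highest in WT M2, and Hmga1 and Hmga2 are lower in M2 than in M0.

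The counts of 12846 genes were compared with edgeR. These included 6 of the 8 genes, since Igf2bp1 and Lin28b had too few counts. An adjusted p under 0.05 was taken as a call. Comparing KO with WT in M0, 1 of the 6 genes was called, Igf2bp3, which was lower, while 9.78% of all tested genes were called (5.5% higher and 4.27% lower). In M2, 2 genes were called, Igf2bp2 and Igf2bp3, both lower, against 2.68% of all tested genes (1.21% higher and 1.46% lower). IL-4 changed 4 of the 6 genes in WT (1 higher and 3 lower), where 50% of all tested genes were called (24.9% higher and 25.1% lower). In KO it changed 6 of the 6 (2 higher and 4 lower), where 52.8% were called (26.8% higher and 26% lower). For the difference between both IL-4 responses (KO minus WT), edgeR called 0 of the 6 genes against 3.24% of all tested genes (1.11% higher and 2.13% lower), with 4 at an unadjusted p under 0.05, 1 called by DESeq2 and 0 by limma on log2(TPM + 1). With the mouse as a block, 5 of the 6 were called for IL-4 in WT (against 54.6% of all tested genes), 6 in KO (against 58.2%) and 3 for the difference (against 7.81%). The median log2 fold change of the 6 genes was -0.03 in M0, -0.32 in M2, -0.40 with IL-4 in WT and -0.57 with IL-4 in KO, while the median of all tested genes was within 0.01 of 0 for KO against WT and for IL-4 in WT.

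**Figure D2:**
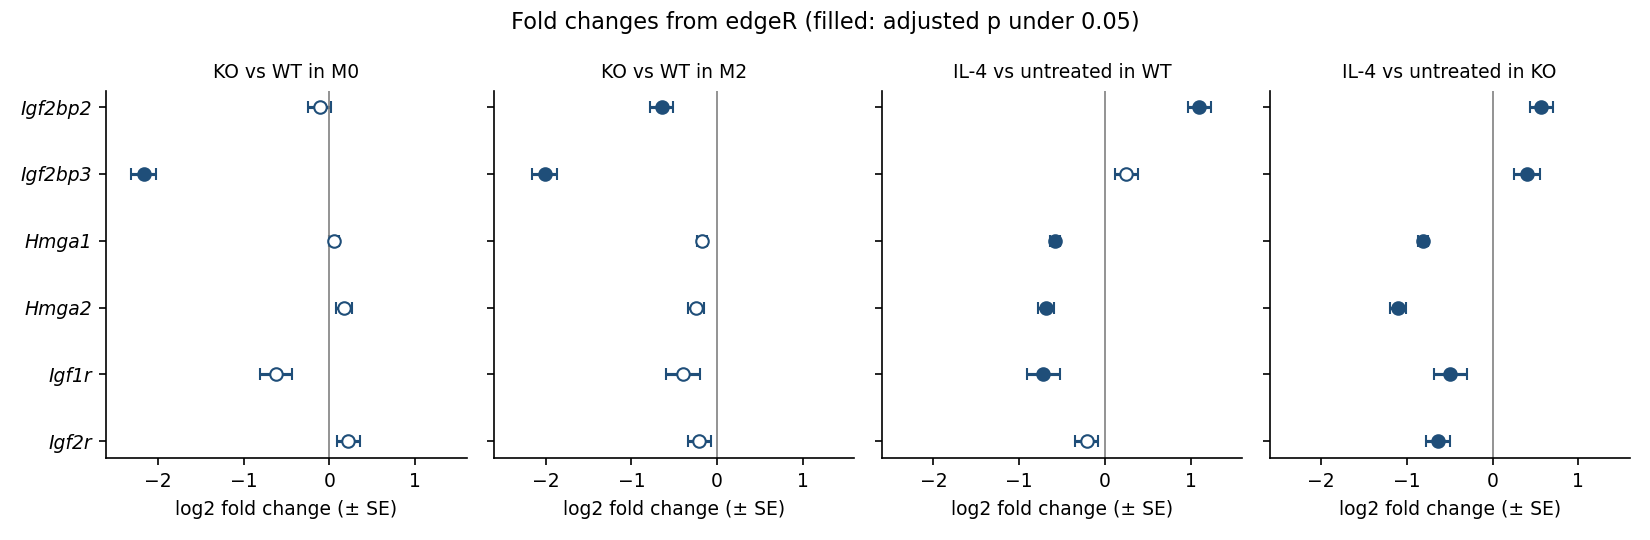
Log2 fold changes of the 6 genes with enough counts in 4 comparisons, with SE from edgeR as bars and filled points for an adjusted p under 0.05. Igf2bp3 stands at -2.16 and -2.01 in the KO comparisons, and Igf2bp2 and the Hmga genes move in opposite directions with IL-4.

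Igf2bp2, the deleted gene, was still measured at similar levels in KO and WT M0 macrophages when counted over the whole gene. The paper reports that its protein (Western blot) and mRNA (qPCR) were close to undetectable in KO BMMs. The forward qPCR primer given there starts within exon 4, one of the deleted exons, whereas the counts used here cover all exons. Its TPM values were 70.1, 58.3 and 42.1 in WT M0 and 56.1, 48.5 and 53.8 in KO M0. The KO libraries fell inside the range of the WT libraries, and KO stood at 92.6% of WT (edgeR adjusted p = 0.656). In M2 the values were 120, 127 and 95.9 TPM in WT and 75.4, 72.8 and 71.3 TPM in KO. Here all KO libraries were below all WT libraries, and KO stood at 63.9% of WT (log2 fold change -0.65, SE 0.13, edgeR adjusted p = 0.0285). The call was lost when limma was applied to log2(TPM + 1) (adjusted p = 0.0811) and in 4 of 6 fits without 1 library, namely WT M2 library 1 or 2 or KO M2 library 2 or 3 (edgeR adjusted p up to 0.127).

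IL-4 raised Igf2bp2 in both genotypes, 2.15-fold in WT (edgeR adjusted p = 2.0e-05) and 1.48-fold in KO (edgeR adjusted p = 0.00297), and the calls were kept in 6 of 6 fits without 1 library. The log2 fold change in KO minus that in WT was -0.53 (SE 0.19) and was not called without pairing (edgeR adjusted p = 0.155), except without WT M0 library 1 (edgeR adjusted p = 0.0366). M0 and M2 libraries of the same number came from the same mouse as far as their shared deviations show. With the mouse as a block, the difference was -0.55 (SE 0.09, edgeR adjusted p = 0.00749), in a fit that called 7.81% of all tested genes, compared with 3.24% without the block.

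Among the 6 tested genes, Igf2bp3 had the largest log2 fold changes between the genotypes. Its values were 6.81, 7.22 and 6.54 TPM in WT M0 and 2.0, 1.49 and 1.13 TPM in KO M0. With IL-4 they were 7.97, 8.01 and 7.47 TPM in WT and 2.08, 1.87 and 1.78 TPM in KO. Each KO library thus lay far below each WT library. Igf2bp3 in KO stood at 22.3% of WT in M0 (log2 fold change -2.16, SE 0.14, edgeR adjusted p = 1.18e-05) and at 24.8% in M2 (log2 fold change -2.01, SE 0.14, edgeR adjusted p = 2.13e-05), and it was called in all 6 fits without 1 library in each treatment.

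Reads shared between the paralogs were examined with the error that the quantification gives for each count. For 7 of the 8 genes, Igf2bp2 and Igf2bp3 among them, the posterior SD of the expected count was 0 in all 12 libraries, so that in these estimates no read was divided between them and other genes. Whether reads matching several genes were dropped earlier is not given in the sources used here. Hmga1 was the exception, with an SD between 0.0632% and 0.144% of its count. The credibility intervals of TPM did not meet either: the lowest bound of Igf2bp3 was 5.70 TPM over the WT M0 libraries and 6.39 TPM over the WT M2 libraries, whereas the highest bound in KO was 2.29 TPM in M0 and 2.36 TPM in M2. The WT values rested on 414 to 513 counts in M0 and 360 to 432 in M2, and the KO values on 98 to 134 counts in M0 and 144 to 177 in M2. The summed stromal markers were also lower in KO (medians of 38.9 and 28.0 CPM in M0 and of 37.6 and 19.8 CPM in M2), as were the summed neutrophil markers (medians of 8.15 and 3.21 CPM in M0 and of 4.59 and 2.72 CPM in M2), and the part of either in the Igf2bp3 result was not tested.

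The response of Igf2bp3 to IL-4 was small. It was 1.19-fold in WT (edgeR adjusted p = 0.129, and 0.0239 with the mouse as a block, a fit that called 54.6% of all tested genes) and 1.32-fold in KO (edgeR adjusted p = 0.0426). In WT all M2 libraries were above all M0 libraries, and in KO the groups overlapped. The KO call was kept in 2 of 6 fits without 1 library (edgeR adjusted p from 0.00235 to 0.179), being lost without KO M0 library 2 or 3 or KO M2 library 1 or 2, and it was absent with limma on log2(TPM + 1) (adjusted p = 0.163). KO minus WT, the responses differed by 0.15 on the log2 scale (SE 0.20, edgeR adjusted p = 0.745).

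Igf2bp1 was near the limit of detection. It had 13, 8 and 9 counts in WT M0, 6, 6 and 1 in KO M0, 3, 1 and 0 in WT M2, and 3, 3 and 2 in KO M2. These values are highest in WT M0, and 3 counts correspond to 0.0757 to 0.150 CPM at these depths. In a fit without the filter on low counts, the log2 fold change was -1.36 for KO against WT in M0 (SE 0.64, edgeR adjusted p = 0.278) and -2.34 for IL-4 in WT (SE 0.79, edgeR adjusted p = 0.0288). Lin28b had 0 counts in all 12 libraries, which allows up to 3 counts in each, and its relative Lin28a did not pass the filter.

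The composition of the family by whole-gene TPM shifted in KO. These values do not tell intact Igf2bp2 transcripts from those without the deleted exons. The shares and sums in KO are therefore not amounts of intact transcripts. Igf2bp2 supplied most of the Igf2bp TPM in every library, and Igf2bp3 made up 11.1 ± 2.28% of the family TPM in WT M0 and 2.82 ± 0.703% in KO M0. In M2 its share was 6.46 ± 0.679% in WT and 2.54 ± 0.128% in KO (n = 3 per group). All WT libraries were above all KO libraries in both treatments (two-sided exact permutation test, p = 0.1, which is the smallest p that 3 against 3 can give). The summed family was 63.9 ± 14.2 TPM in WT M0 and 54.4 ± 4.10 TPM in KO M0 (exact permutation test, p = 0.4), and it was 122 ± 16.6 TPM in WT M2 and 75.2 ± 2.24 TPM in KO M2 (exact permutation test, p = 0.1). The 4 comparisons were not adjusted for their number.

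**Figure D3:**
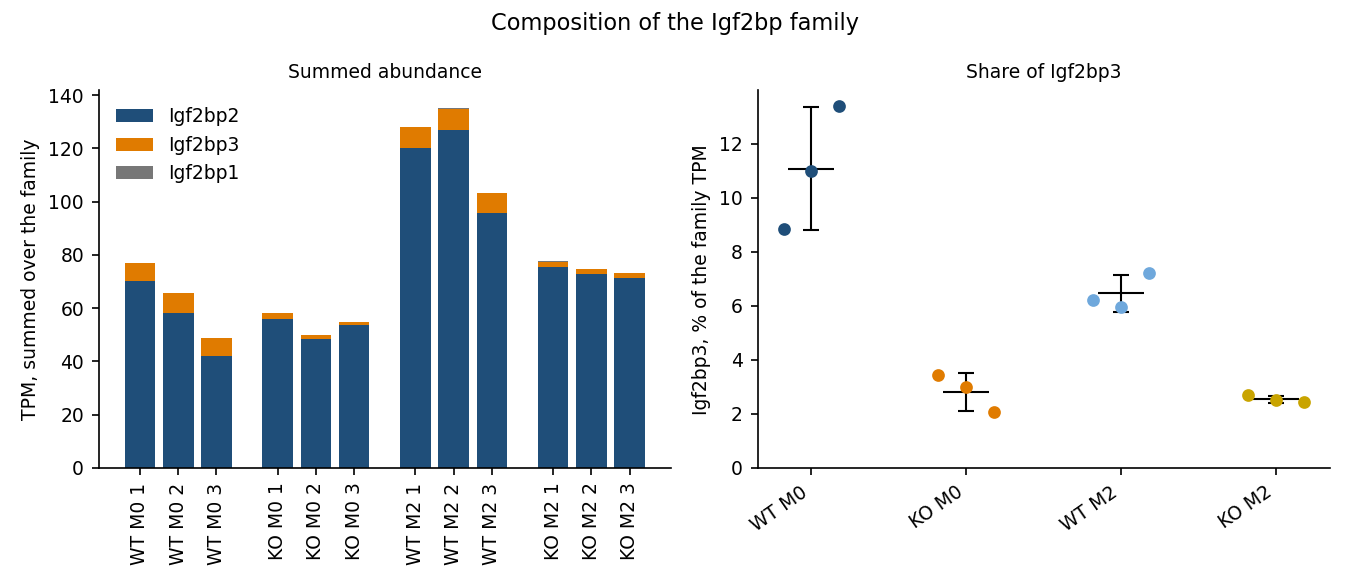
Left, TPM of Igf2bp2, Igf2bp3 and Igf2bp1 stacked for each of the 12 libraries; right, Igf2bp3 as a percentage of the family TPM per library with the mean and SD of each group of 3. The share is between 2 and 4% in all KO libraries and above 5% in all WT libraries, and Igf2bp1 is too low to be seen.

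Gene lengths in the tables are means over the transcripts of a gene weighted by their estimated abundance, so that they move only if isoform shares move. For Igf2bp3, Igf1r and Lin28b the files hold 1 transcript each, and their lengths (4344, 4489 and 5402 nt) carry no information on isoforms. For Igf2bp2, which has 9 transcripts in the files, the length was 3202, 3203 and 3225 nt in WT M0 and 3186, 3219 and 3117 nt in KO M0. In M2 it was 3261, 3242 and 3297 nt in WT and 3240, 3173 and 3192 nt in KO. The KO libraries overlapped with WT in M0 and were all below WT in M2, where the mean was 1.99% shorter. This was not called by limma over 7498 genes with enough counts (adjusted p = 0.492, unadjusted p = 0.0463), and 0.0533% of these genes were called in M2. In M0 the difference was -1.12% (limma adjusted p = 0.766).

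Hmga1 (6 transcripts in the files) was 1.91% longer in KO M0 (limma adjusted p = 0.536) and 1.75% longer in KO M2 (limma adjusted p = 0.545). Hmga2 had a length between 3711 and 3714 nt in all libraries and Igf2r one between 8725 and 8887 nt. For the 4 genes that could be tested, limma called 0 lengths in each of the 5 comparisons (with IL-4, 0.0934% of all tested genes were called in WT and 0.0133% in KO), and 1 of them, Igf2bp2 in M2, had an unadjusted p under 0.05. Igf2bp1 had lengths between 690 and 8378 nt, estimated from at most 13 counts. The Igf1r transcript of the files is shorter than the longest one of GENCODE M21, which has 11409 nt with a 3'UTR of 7267 nt. Which part of the longer transcript is missing from the files was not examined.

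**Figure D4:**
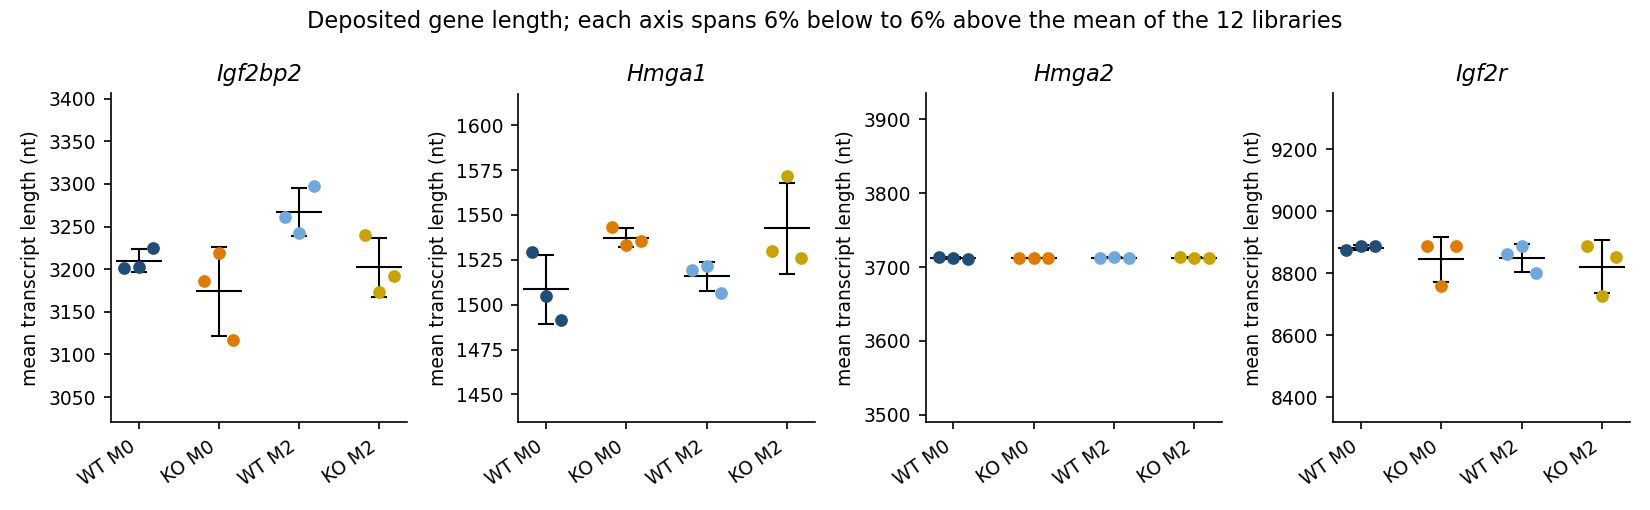
Mean transcript length in nt of Igf2bp2, Hmga1, Hmga2 and Igf2r per library, with the mean and SD of each group of 3; each axis covers 6% below to 6% above the mean of the gene and does not start at 0. Differences between groups stay within about 3%, and those of Hmga2 cannot be seen on this scale.

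Hmga1 and Hmga2 fell with IL-4 in both genotypes. Hmga1 had 1372, 1316 and 1234 TPM in WT M0, 1449, 1261 and 1253 TPM in KO M0, 868, 850 and 775 TPM in WT M2, and 716, 710 and 698 TPM in KO M2. All M2 libraries were below all M0 libraries of the same genotype. With IL-4 Hmga1 fell to 66.8% in WT (edgeR adjusted p = 7.13e-06) and to 57.0% in KO (edgeR adjusted p = 2.91e-07). Hmga2 had 196, 166 and 152 TPM in WT M0, 182, 182 and 210 TPM in KO M0, 105, 104 and 95.2 TPM in WT M2, and 71.1, 89.3 and 92.3 TPM in KO M2. It fell to 62.0% in WT (log2 fold change -0.69, SE 0.09, edgeR adjusted p = 4.76e-05) and to 46.4% in KO (log2 fold change -1.11, SE 0.09, edgeR adjusted p = 5.87e-07).

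Neither gene was called between the genotypes. The log2 fold changes of Hmga1 were 0.05 in M0 (SE 0.06, edgeR adjusted p = 0.649) and -0.18 in M2 (SE 0.06, edgeR adjusted p = 0.148), and those of Hmga2 were 0.17 in M0 (SE 0.09, edgeR adjusted p = 0.268) and -0.25 in M2 (SE 0.09, edgeR adjusted p = 0.165). In M0 the groups overlapped for both genes, and in M2 the KO libraries were below the WT libraries. KO minus WT, the log2 responses to IL-4 differed by -0.23 for Hmga1 (edgeR adjusted p = 0.200, and 0.0421 with the mouse as a block) and by -0.42 for Hmga2 (edgeR adjusted p = 0.109, and 0.0111 with the mouse as a block). Without WT M0 library 1 the value of Hmga2 was called also without the block (edgeR adjusted p = 0.0401). The 5 markers of cycling cells (Mki67, Top2a, Ccnb1, Cdk1 and Mcm2) moved with these genes, as 5 of 5 fell with IL-4 in both genotypes, against 25.1% of all tested genes in WT and 26% in KO. Mcm2 was also called lower in KO M2 (log2 fold change -0.34, edgeR adjusted p = 0.0313) and for the difference between the responses (-0.45, edgeR adjusted p = 0.0282). Their sum lay between 1492 and 1709 CPM (M0) and between 639 and 1003 CPM (M2) in WT, and between 1483 and 1514 CPM (M0) and between 631 and 743 CPM (M2) in KO, none was at 0, and their part in the Hmga results was not tested.

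The 2 receptor genes differed in level. Igf1r had 2.84, 2.46 and 1.71 TPM in WT M0, 1.82, 1.41 and 1.33 TPM in KO M0, 1.30, 1.67 and 1.1 TPM in WT M2, and 0.88, 1.07 and 1.08 TPM in KO M2, with 55 to 208 counts per library. KO M0 overlapped with WT M0 through WT library 3. The log2 fold change in M0 was -0.62 (SE 0.19) and missed the threshold (edgeR adjusted p = 0.0539). It passed without WT M0 library 3 (edgeR adjusted p = 0.0154) and with DESeq2 (adjusted p = 0.0300). In M2 the value was -0.40 (SE 0.20, edgeR adjusted p = 0.289). IL-4 lowered Igf1r to 60.9% in WT (log2 fold change -0.72, SE 0.19, edgeR adjusted p = 0.00793) and to 71.0% in KO (edgeR adjusted p = 0.0463). The call in KO was kept in 1 of 6 fits without 1 library, the one without KO M0 library 3, and was lost without each of the others (edgeR adjusted p up to 0.171) and with limma on log2(TPM + 1) (adjusted p = 0.0769).

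Igf2r had 70.3, 57.9 and 46.2 TPM in WT M0, 65.6, 72.3 and 64.6 TPM in KO M0, 50.0, 48.5 and 45.7 TPM in WT M2, and 30.6, 50.2 and 43.0 TPM in KO M2. The genotypes overlapped in both treatments, with log2 fold changes of 0.22 in M0 (SE 0.14, edgeR adjusted p = 0.344) and -0.21 in M2 (SE 0.14, edgeR adjusted p = 0.428). IL-4 lowered Igf2r in KO to 64.2% (log2 fold change -0.64, SE 0.14, edgeR adjusted p = 0.00167), with no overlap between M0 and M2. In WT it stood at 86.3% with overlapping groups (edgeR adjusted p = 0.225). KO minus WT, the responses of Igf2r differed by -0.43 (SE 0.19, edgeR adjusted p = 0.276), which was not called with the mouse as a block either (edgeR adjusted p = 0.0584).

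Genes around the IGF receptors were followed with a list of 20 ligands, receptors, adaptors and binding proteins, of which 7 could be tested. The ligand Igf1 was abundant, with 663 ± 68.2 CPM in WT M0, while Igf2 had a mean of at most 0.0301 CPM in each group and did not pass the filter. In M0, 1 of the 7 was higher in KO and 1 was lower, while 9.78% of all tested genes were called. Irs2, an adaptor of the insulin and IGF1 receptors, rose from 1.95 ± 0.318 to 3.33 ± 0.340 CPM (log2 fold change 0.77, SE 0.19, edgeR adjusted p = 0.0252), and Igfbp4, a secreted protein that binds IGFs, fell from 216 ± 5.87 to 162 ± 4.91 CPM (log2 fold change -0.42, SE 0.04, edgeR adjusted p = 0.000222). The call of Irs2 was lost without WT M0 library 2 or any of the 3 KO M0 libraries (edgeR adjusted p up to 0.105) and with limma on log2(TPM + 1) (adjusted p = 0.0693), whereas that of Igfbp4 was kept in all of these. In M2, edgeR called 0 of the 7, against 2.68% of all tested genes, 3 had an unadjusted p under 0.05, and DESeq2 called 1. With IL-4, 3 genes of the list rose and 1 fell in WT, and 2 rose and 2 fell in KO, so that 4 of the 7 were called in each genotype, near the share of all tested genes (50% in WT and 52.8% in KO). Igf1 rose by a log2 fold change of 0.92 in WT and 0.80 in KO, and Irs2 rose by 1.09 in WT and had a log2 fold change of 0.11 in KO (edgeR adjusted p = 0.634). The insulin receptor gene Insr rose by 0.65 in WT and 0.54 in KO. Grb10, an adaptor that restrains these receptors, fell by 1.26 in KO and had a log2 fold change of -0.69 in WT (edgeR adjusted p = 0.0690). Igfbp4 fell by 0.40 in WT and by 0.13 in KO. For the difference between the responses, edgeR called 1 of the 7, Igfbp4, against 3.24% of all tested genes, and DESeq2 called 2. The median log2 fold change of the list was -0.41 in M0 and -0.26 in M2.

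Of 17 genes around LIN28 and let-7, which include the microRNA processing enzymes and known let-7 targets, 15 could be tested. In M0, edgeR, DESeq2 and limma called 0 of the 15 between the genotypes, with 3 at an unadjusted p under 0.05 by edgeR. The edgeR shares over all tested genes were 9.78% in M0 and 2.68% in M2, at which 15 genes would hold few calls or none. In M2, Cdc25a, a phosphatase that drives the cell cycle, was lower in KO (43.0 ± 2.72 against 33.7 ± 2.70 CPM, log2 fold change -0.36, SE 0.07, edgeR adjusted p = 0.0303), and the other 14 did not pass the test. This call was lost with limma on log2(TPM + 1) (adjusted p = 0.0745) and with only the groups compared (edgeR adjusted p = 0.0683), and in 4 of 6 fits without 1 library, namely WT M2 library 1 or 2 or KO M2 library 2 or 3 (edgeR adjusted p up to 0.128). The median log2 fold change was 0.04 in M0 and -0.09 in M2. IL-4 raised 3 and lowered 5 of the 15 in WT, and raised 2 and lowered 7 in KO, again near the 50% and 52.8% called over all genes. Myc rose by 0.66 in WT and 0.94 in KO, and Dis3l2, the nuclease that degrades let-7 precursors tagged by LIN28, rose by 0.33 in WT and 0.35 in KO. Arid3b, which encodes an AT-rich DNA-binding protein, fell by 0.73 in WT and by 0.84 in KO. Its relative Arid3a fell by 0.44 in WT and by 0.45 in KO, and Cdc25a fell by 0.24 in WT and by 0.54 in KO.

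The Hmga genes were set beside 8 other high mobility group genes, all of which could be tested. In M0, Hmgb1 was lower in KO (257 ± 23.3 against 206 ± 9.75 CPM, log2 fold change -0.32, SE 0.08, edgeR adjusted p = 0.0295), a call that was kept only without WT M0 library 1 among the 6 fits without 1 library (edgeR adjusted p up to 0.118). It was the 1 call among the 8 in M0, where 9.78% of all tested genes were called, and 5 had an unadjusted p under 0.05. DESeq2 and limma on log2(TPM + 1) called 2 each, and the median log2 fold change in M0 was -0.20. In M2 edgeR and DESeq2 called 0 of the 8, with 1 at an unadjusted p under 0.05. There edgeR called 2.68% of all tested genes, a share at which 8 genes would hold few calls or none. IL-4 lowered 6 of the 8 in WT and 5 in KO and raised 0 in both, while 25.1% and 26% of all tested genes were lowered. The median log2 fold change of the 8 was -0.49 in WT and -0.41 in KO. The 5 markers of cycling cells fell as well, with medians of -1.08 in WT and -0.97 in KO, and their part in this result was not tested. Hmgb2 fell by 1.29 in WT and by 1.00 in KO, and Hmgb3 fell by 1.17 in WT and by 0.68 in KO, on the log2 scale. Hmga1b fell by 1.08 in KO and had a log2 fold change of -0.30 in WT (edgeR adjusted p = 0.309). The difference between the responses (KO minus WT) was called for 0 of the 8 and, with the mouse as a block, for 4. These stand against 3.24% and 7.81% of all tested genes. The median of this difference over the 8 was 0.25, whereas it was -0.23 for Hmga1 and -0.42 for Hmga2. Hmga1b is nearly identical to Hmga1, so that the division of reads between them is uncertain.

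For 9 RNA-binding proteins found in IGF2BP granules and for 6 tested mRNAs that IGF2BPs bind, edgeR called 0 genes between the genotypes in M0 and in M2, where 9.78% and 2.68% of all tested genes were called, so that lists of this size would hold few calls or none at these shares. At an unadjusted p under 0.05 these numbers were 0 and 2 of the RNA-binding proteins and 2 and 1 of the bound mRNAs in M0 and M2, and DESeq2 called 1 RNA-binding protein in M2. The number of called genes over the 5 lists, to be read against the same shares, depended on single libraries. In M0 it was 3, but 1 without WT M0 library 2 or without any of the 3 KO M0 libraries and 6 without WT M0 library 1. In M2 it was 1 (Cdc25a), but 0 without WT M2 library 1 or 2 or KO M2 library 2 or 3, and 2 without WT M2 library 3.

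IL-4 raised 4 and lowered 1 of the 9 RNA-binding proteins in each genotype, near the 50% and 52.8% called over all genes. With the mouse as a block, 5 of the 9 were called in WT and 7 in KO, against 54.6% and 58.2% of all tested genes. DESeq2 also called 7 in KO. Stau1, which carries mRNAs along the cytoskeleton, rose by 0.53 in WT and 0.46 in KO, Pabpc1, which binds poly(A) tails, rose by 0.30 in WT and 0.18 in KO, and Elavl1, which stabilizes mRNAs, rose by 0.24 in WT and 0.29 in KO. Fmr1, a repressor of translation, fell by 0.24 in WT and by 0.57 in KO. IL-4 raised 3 of the 6 bound mRNAs in each genotype and lowered 2 in WT and 1 in KO, against 50% and 52.8% of all tested genes called in either direction. Lamb2, which encodes a laminin chain, fell by 0.93 in WT and had a log2 fold change of -0.30 in KO (edgeR adjusted p = 0.339), Btrc rose by 0.53 in WT and in KO, and the transporter gene Abcb1b fell by 0.64 in WT and by 0.38 in KO. The difference between the responses was called for 0 of the 6 bound mRNAs and, with the mouse as a block, for 1. These stand against 3.24% and 7.81% of all tested genes, and DESeq2 called 1.

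The chromosomal neighbors of Igf2bp2 and Igf2bp3 were measured to see whether their change extended along the chromosome. The 3 nearest tested genes on each side were taken. Around Igf2bp2, 1 of 6 was called in M0, where 9.78% of all tested genes were called. This was Etv5, which lies 218 kb away and was higher in KO (log2 fold change 0.32, edgeR adjusted p = 0.00222). Senp2 at 9.7 kb and Tra2b at 81.2 kb had log2 fold changes between -0.13 and 0.04 in M0 and M2. Around Igf2bp3 (chr6:49085223-49214957, minus strand), the adjacent genes Gpnmb at 14.3 kb and Tra2a at 29.0 kb had log2 fold changes between -0.20 and 0.00. Tmem176a at 238 kb and Tmem176b at 244 kb were lower in KO M0 (log2 fold changes -0.83 and -0.86, edgeR adjusted p = 0.0349 and 0.0157). In M2 they stood at -0.56 and -0.81 and were not called (edgeR adjusted p = 0.194 and 0.0526).

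**Figure D5:**
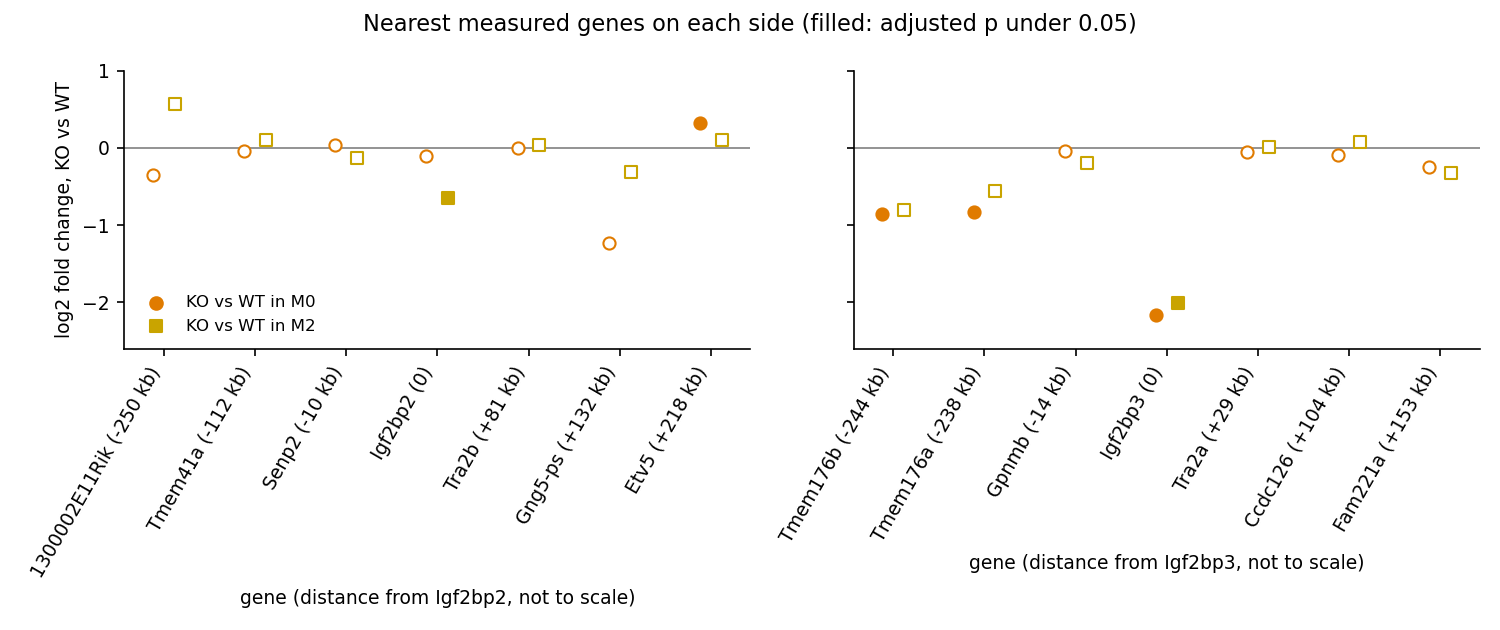
Log2 fold change between KO and WT for Igf2bp2 (left), Igf2bp3 (right) and the 3 nearest tested genes on each side, in M0 (circles) and M2 (squares), filled where the adjusted p was under 0.05. Genes are ordered by position with their distance in kb, not to scale, and the fall of Igf2bp3 is not shared by Gpnmb and Tra2a next to it.

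Genes with the most similar pattern were named by Pearson correlation of log2 CPM over the 12 libraries, among 11719 protein-coding genes. These values are descriptions, since the libraries share groups and any gene with the same group differences scores high. Igf2bp2 was closest to Eif4a2 (r = 0.980), Adgre1 (0.975), Ppid (0.975), Cdk8 (0.974) and Ccdc88a (0.965). Eif4a2 encodes an RNA helicase of translation initiation and lies on chromosome 16 like Igf2bp2. Adgre1 encodes F4/80, a macrophage marker. Igf2bp3 was closest to Lyz2 (0.948), the Cre locus, followed by Ide (0.938), which encodes an enzyme that degrades insulin, and by Sinhcaf (0.932), Rbm45 (0.928) and Mgme1 (0.927). Hmga1 was closest to Stk35, Adss and Oas2 (0.988 to 0.990), and Hmga2 to Acsl4, Maml3 and Cdk14 (0.985 to 0.987). For Igf1r these were Yae1d1, Vps54 and Zscan21 (0.948 to 0.961), and for Igf2r they were Flna, Slc38a1 and Ankrd11 (0.982 to 0.992). Among the 6 genes themselves, Hmga1 and Hmga2 had the highest correlation (0.951) and Igf2bp2 and Hmga1 the lowest (-0.69).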

How the data were processed

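For each of the 12 libraries (poly(A)-enriched, strand-specific, 75 nt single reads, from 3 mice per genotype), the authors deposited a table with expected counts per gene (estimated numbers of reads), their posterior SD, TPM as point estimates and posterior means, and mean and effective transcript lengths in nt. The deposited bounds of TPM are credibility intervals (a signal that is never negative). Per the labels and the paper, reads were checked with FastQC 0.11.2 and mapped to GRCm38/mm10 by the Grape-nf pipeline. The quantifier's settings and the annotation release behind the counts are not given in the sources used here. The deposited DESeq2 tables (version 1.40.2) hold the authors' own comparisons (mean counts, fold changes and p-values) and were not used. Symbols were found for 37570 of 38887 gene IDs in a reference table of gene names.

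Expected counts were rounded and filtered with filterByExpr, and 12846 genes were fitted with edgeR 4.0.16 (TMM, quasi-likelihood test, 1 coefficient per group over all 12 libraries, Benjamini-Hochberg adjustment over all genes). The SE was the absolute log2 fold change divided by the square root of F. Lengths were tested with limma 3.58.1 on log2 nt over genes with a mean of at least 50 counts and a length differing by over 1 nt. Family shares were compared with a two-sided exact permutation test in scipy 1.17.1. R 4.3.3 and DESeq2 1.42.0 were used, and both models were tested on simulated data.

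M0 and M2 libraries of the same number deviated together (correlations of 0.331, 0.103 and 0.364 in WT and 0.166, 0.160 and 0.209 in KO), so the mouse was used as a block for IL-4, whereas WT and KO libraries did not pair by number. Alternatives were RLE factors, 2 other filters, DESeq2, limma on log2(TPM + 1) and log2(TPM + 0.1), the block, only the libraries compared, and leaving out each library. The genes and lists were chosen with earlier results of these data known, and 1 listed gene is not reported here. Named were all 8 genes, the 3 nearest tested genes on each side of Igf2bp2 and Igf2bp3, the 5 or 3 most correlated genes, every list gene called between genotypes, and up to 2 list genes per direction with the largest called IL-4 change. Intervals and floors cover counting error only.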

Additional observations from a re-analysis of the deposited data

Results flagged for a closer look

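The response to IL-4 differed between KO and WT for 2 list genes, by a test of the difference itself with edgeR. The difference in log2 fold change (KO minus WT) was 0.27 for Igfbp4 (SE 0.06, edgeR adjusted p = 0.0332), which fell less in KO, having started from a lower level. It was -0.33 for Fmr1 (SE 0.08, edgeR adjusted p = 0.0349), which fell more in KO. The number of list genes with such a difference was 2 without the mouse as a block, where 3.24% of all tested genes were called, and 8 with it, where 7.81% were called. Neither call was made by limma on log2(TPM + 1) (adjusted p = 0.248 for Igfbp4 and 0.0641 for Fmr1), and that of Igfbp4 was also lost with no filter on low counts (edgeR adjusted p = 0.0671). Of 12 fits without 1 library, the call of Igfbp4 was kept only without WT M0 library 1, WT M2 library 1 or KO M2 library 1 (edgeR adjusted p from 0.0321 to 0.103 over all 12), and that of Fmr1 only without WT M0 library 3, WT M2 library 3, KO M0 library 2 or KO M2 library 1 (edgeR adjusted p from 0.0303 to 0.101).

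With the mouse as a block, the responses also differed for Igf2bp2 (-0.55, edgeR adjusted p = 0.00749), Hmga1 (-0.23, edgeR adjusted p = 0.0421) and Hmga2 (-0.42, edgeR adjusted p = 0.0111). Igf2bp2 rose less in KO, and the 2 Hmga genes fell more in KO. Without the block these 3 differences had the same direction and were not called by edgeR over all 12 libraries, but Hmga2 was called by DESeq2 (adjusted p = 0.0320), and Igf2bp2 and Hmga2 were called without WT M0 library 1 (edgeR adjusted p = 0.0366 and 0.0401).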

How the results depend on the processing

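No direction of a called change was reversed for the 8 genes. Between the genotypes in M0, 1 of the 8 genes was called, and 2 were called with no filter on low counts, with DESeq2 and with the library number as a replicate block, the second being Igf1r (edgeR adjusted p = 0.0464 with the block). In M2 the number was 2, and it was 1 with limma on log2(TPM + 1) and on log2(TPM + 0.1), Igf2bp2 being lost. For the difference between the IL-4 responses it was 0, and it was 3 with the replicate block (the mouse) and 1 with DESeq2 (Hmga2, adjusted p = 0.0320). Without 1 library, it ranged from 1 to 2 in M0, from 1 to 2 in M2 and from 0 to 2 for the difference. Over the 5 lists, 1 gene was called in M2, and 2 with a mean of at least 1 CPM, 0 with limma at both pseudocounts and with only the groups compared, 2 with the replicate block and 3 with DESeq2. For the difference, 2 list genes were called, and 1 with no filter on low counts, 0 with limma at both pseudocounts, 8 with the replicate block and 4 with DESeq2. Without 1 library, these numbers ranged from 1 to 6 in M0, from 0 to 2 in M2 and from 0 to 3 for the difference. For the difference, 0 list genes were called without WT M0 library 2, WT M2 library 2, KO M0 library 1 or 3 or KO M2 library 3, and 1 without WT M0 library 3, WT M2 library 1 or 3, KO M0 library 2 or KO M2 library 2. Over all genes, the number called in M0 was 1256, and 752 and 700 with limma at the larger and smaller pseudocount. In M2 it was 344, and 70 and 57 with limma, 165 with only the groups compared and 713 with DESeq2. For the difference it was 416, and 113 with limma at both pseudocounts, 1003 with the mouse as a block and 816 with DESeq2. Without 1 library it ranged from 461 to 1461 in M0 (lowest without WT M0 library 2), from 25 to 298 in M2 (lowest without KO M2 library 3, and 34 without WT M2 library 2 or KO M2 library 2) and from 183 to 643 for the difference (lowest without WT M0 library 2, highest without WT M0 library 1). The deviations of same-numbered libraries correlated between -0.07 and 0.04 across genotypes, and blocking by this number gave 1322 calls in M0 and 413 in M2. The cause was not tested. Lengths of the 4 genes that could be tested were called 0 times under every alternative run. The replicate block changed no other call of the 8 genes than those named here and for Igf2bp3 with IL-4 in WT. The differences of Hmga1 and Hmga2 between genotypes in M2 missed the adjusted threshold (edgeR adjusted p = 0.148 and 0.165). The groups did not overlap, but the share of all tested genes without overlap was not determined. Whether more libraries would change these calls was not tested. Single reads of 75 nt give isoform shares only as estimates.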
